A study of Mus musculus with 6 samples.

Results

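The mitochondrial genome encodes 7 subunits of respiratory complex I, and their mRNAs (ND1, ND2, ND3, ND4, ND4L, ND5 and ND6) were examined in mouse brown fat (BAT), the tissue that burns fuel to make heat. The members were the 7 rows of the count table that carry these names in capital letters, of 35976 rows in all. BAT had been taken after 4 h at 4 °C from 3 mice with adipose deletion of Cars2 and from 3 wild-type controls, with room temperature housing before the cold. AKO denotes the deletion, made by crossing floxed Cars2 mice with Adiponectin-Cre mice, and WT denotes the controls. Adiponectin-Cre acts in all adipocytes, white and brown, and not in the vessels, nerves and immune cells that BAT also holds, so those cells keep Cars2. The labels give no sex or age for these 6 mice. The study's methods give an age range for its mice as a whole and male sex for its feeding experiments, and its text calls wild-type controls Flox, without tying these to the 6 libraries. Each library was labelled as a separate sample, and the p-values measure only the spread between these 6 samples, which may be technical.

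Complex I is the entry point of electrons from NADH into the respiratory chain and pumps protons across the inner mitochondrial membrane. Its 7 mitochondrially encoded subunits form the core of the membrane arm, where the protons pass, and the remaining core subunits are encoded in the nucleus. Mitochondrial mRNAs are cut out of long transcripts that span most of the genome, often at the tRNAs that lie between them, so that genes transcribed together can still differ in level through processing and decay. The product of Cars2 loads cysteine onto the mitochondrial tRNA for cysteine and so takes part in making these subunits. The study examines it as a synthase of cysteine persulfide. The comparison of AKO with WT asks how RNA levels in BAT differ when adipocytes lack Cars2.

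The 7 mRNAs differ in features that bear on how they are counted. All lie on chromosome M of GRCm38 (mm10), each as 1 uninterrupted reading frame. ND1 spans bases 2751 to 3707, ND2 3914 to 4951, ND3 9459 to 9806, ND4L 9877 to 10173, ND4 10167 to 11544 and ND5 11742 to 13565 on the plus strand. ND6 spans 13552 to 14070 on the minus strand. The GENCODE and RefSeq positions were the same for all 7. Lengths ran from 297 bases (ND4L) to 1824 bases (ND5), and ND4L had the highest GC content, at 41.1%.

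The ends of the annotated reading frames are shown for all 7 members because they differ in stop codon and in what lies beyond it. Each is the last 30 bases of the GENCODE M21 entry, 5′ to 3′ on the coding strand, and not necessarily the end of the mature mRNA, with the letters of the stop codon in capitals.
ND1, chrM:3678-3707, plus strand: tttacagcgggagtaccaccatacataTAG
ND2, chrM:4922-4951, plus strand: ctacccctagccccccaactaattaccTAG
ND3, chrM:9777-9806, plus strand: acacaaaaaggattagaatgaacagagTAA
ND4L, chrM:10144-10173, plus strand: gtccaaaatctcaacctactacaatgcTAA
ND4, chrM:11515-11544, plus strand: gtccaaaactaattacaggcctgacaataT
ND5, chrM:13536-13565, plus strand: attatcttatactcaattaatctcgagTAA
ND6, chrM:13552-13581, minus strand: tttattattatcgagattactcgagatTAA
ND4 alone among the 7 ends in an incomplete stop codon, a single T, which a poly(A) tail turns into TAA. ND1 and ND2 end in TAG and the other 4 in TAA.

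Some members share bases with a neighbour, and these junctions are shown with the shared bases in capitals. ND4L and ND4 overlap by 7 bases on the same strand, which hold the start codon of ND4 and the stop codon of ND4L. ND5 and ND6 overlap by 14 bases on opposite strands, printed here on the strand of ND5.
ND4L and ND4, chrM:10152-10188: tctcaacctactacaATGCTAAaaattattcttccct
ND5 and ND6, chrM:13537-13580: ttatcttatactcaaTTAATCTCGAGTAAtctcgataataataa
No source used here gives the strand setting of the counting, so reads of ND6 and reads of RNA antisense to it cannot be told apart. How reads that touch ND4L and ND4 at once were assigned is not given either.

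ND3, ND4L and much of ND4 also have nearly identical copies on chromosome 1 in the mouse nuclear genome. In a blastn search of the nuclear transcripts in GENCODE M21, the pseudogene Gm10222 (chr1:24612407-24612700) matched ND4L over 294 bases with 0 mismatches. Gm28438 (chr1:24612775-24613119) matched ND3 over 345 bases with 1 mismatch, and Gm28439 (chr1:24611535-24612410) matched the first 876 of 1378 bases of ND4 with 0 mismatches. The whole of ND4L and the first 60 bases of ND3 are shown from GENCODE M21 to show how little distinguishes them from the nuclear copies, with the base that differs from the nuclear copy in capitals.
ND4L, chrM:9877-10173, plus strand: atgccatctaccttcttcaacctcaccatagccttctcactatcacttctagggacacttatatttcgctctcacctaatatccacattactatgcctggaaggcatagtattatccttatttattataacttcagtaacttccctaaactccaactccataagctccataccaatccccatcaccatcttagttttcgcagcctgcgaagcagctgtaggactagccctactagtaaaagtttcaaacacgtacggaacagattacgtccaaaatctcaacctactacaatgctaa
ND3, chrM:9459-9518, plus strand: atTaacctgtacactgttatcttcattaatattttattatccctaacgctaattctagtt
ND3 differs from its copy by T3C, counted from 1 at the first base of the reading frame, and ND4L has no capital letter because no aligned base differed. Of all 100-base windows, 98.5% in ND4L, 97.6% in ND3 and 60.8% in ND4 were identical in a nuclear transcript. That share was 3.19% in ND2 and 0% in ND1, ND5 and ND6. Less similar copies of ND2 (96.7% identity over 510 bases), ND5 (95.2% over 954 bases) and ND6 (93.6% over 519 bases) were found, and none of at least 90% identity for ND1. The treatment of reads that match more than 1 place is not given, and none of these copies has a row in the count table, so the values of ND3, ND4L and ND4 are uncertain.

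Total counts were 6540619 to 8461685 per library. Levels are given as CPM, which are counts relative to the TMM-scaled size of the library, and group values as mean ± SD of 3 libraries. Differences are log2 fold changes (log2FC, AKO over WT) ± the standard error (SE) from edgeR's quasi-likelihood test, and a gene was called when its Benjamini-Hochberg adjusted p over all 13007 genes tested lay under 0.05. Cars2 was at 458.5 to 786 CPM in WT and 132 to 248 CPM in AKO (log2FC −1.64 ± 0.23), and all AKO libraries were below all WT libraries. Defining markers of brown adipocytes were present in all 6, and the 7 of the list summed to 25808 to 29023 CPM in WT and 10549 to 16679 CPM in AKO, with 4 of 7 lower. Skeletal muscle markers were higher for 12 of 12 genes, with a summed level of 85.7 to 408 CPM in WT and 847 to 1821 CPM in AKO, and none was at 0 in any library. Macrophage markers were higher for 8 of 8 genes, at 169 to 206 CPM in WT and 669 to 924 CPM in AKO, as were 4 of 4 fibroblast markers. Of 4 endothelial markers 1 was lower, and the 3 erythroid markers summed to 309.9 to 667 CPM in WT and 613 to 748 CPM in AKO.

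In AKO BAT, ND1 mRNA was lower than in WT, while ND2 and ND5 mRNAs were higher, and ND3, ND4L, ND4 and ND6 did not pass the test. All 7 members passed the filter on low counts. Of the 7, 3 were called (2 higher, 1 lower), against 37.6% of all genes tested (20.2% higher and 17.5% lower), so the share of members called was near the background. Over the 15 other fits 25.3% to 38.7% of genes were called. Of all calls 53.6% were higher, against 65.2% where libraries were scaled by their totals alone. The same 3 members were those whose AKO and WT libraries did not overlap, which held for 50.1% of all genes tested. The median log2 fold change was −0.021 over the 7 members and 0.0088 over all genes tested. In bulk tissue, fewer cells of a type and less RNA per cell cannot be told apart, and this holds for each value here.

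**Figure D1:**
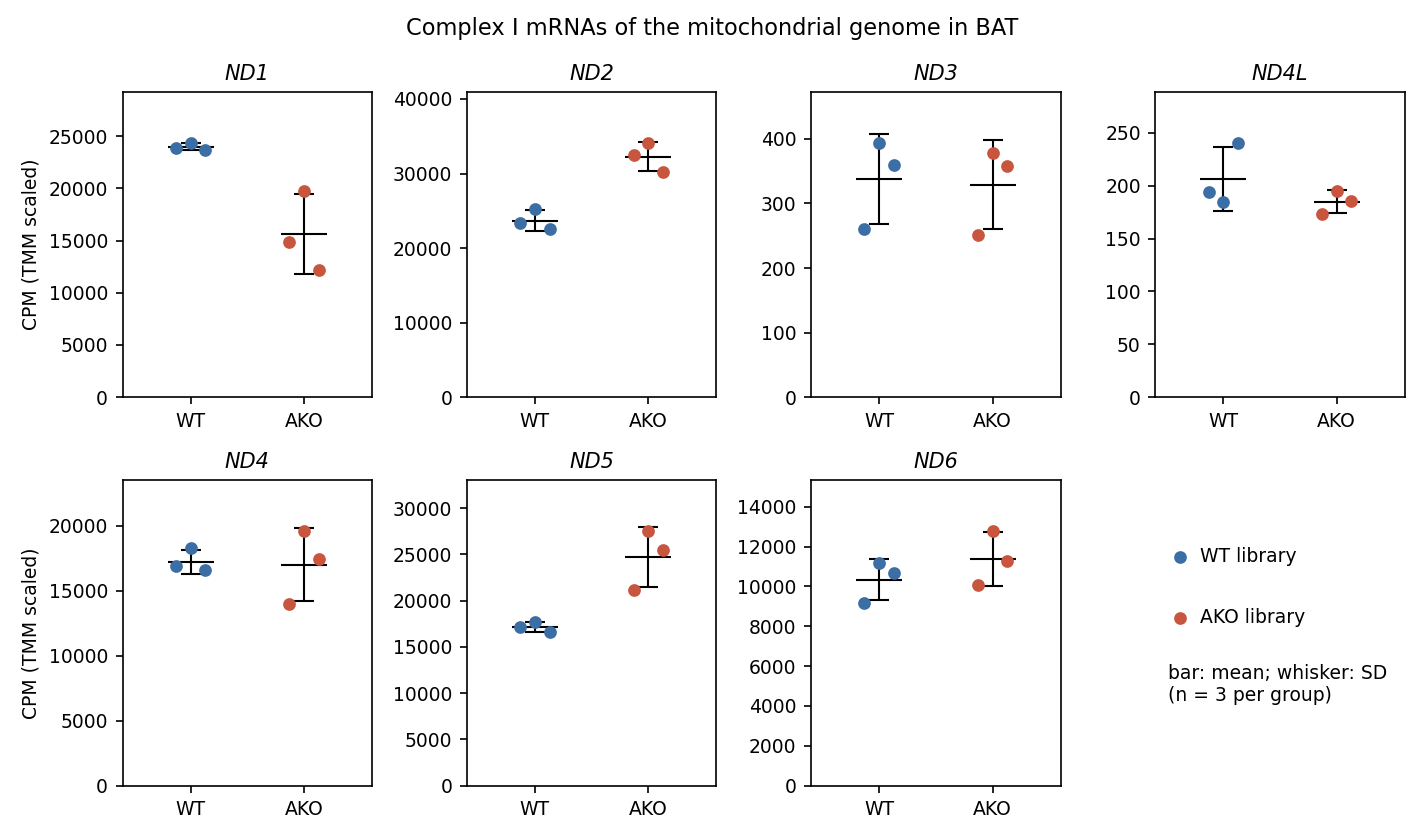
Level of each of the 7 complex I mRNAs in CPM (vertical axes, each from 0) in the 3 WT and 3 AKO libraries. Points are libraries, the bar is the mean and the whisker the SD. All AKO points lie below all WT points for ND1 and above them for ND2 and ND5, and the groups overlap for the other 4.

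ND1, a subunit at the junction of the membrane arm and the arm that receives electrons, was at 23872, 24349 and 23708 CPM in WT replicates 1 to 3. In AKO replicates 1 to 3 it was at 14900, 19773 and 12148 CPM. The WT libraries lay close together, and the AKO libraries were spread over a wider range that stayed below them. Mean levels were 23976 ± 333 CPM for WT and 15607 ± 3861 CPM for AKO (SD, n = 3). ND1 had a log2FC of −0.62 ± 0.18 (adjusted p = 0.0181, edgeR). ND1 passed in 14 of 15 other fits. The exception was the fit without AKO replicate 3, where it was −0.46 and its adjusted p = 0.0645, at the upper end of a range that began at 4.88e-05.

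ND2, which builds 1 of the antiporter-like proton channels of the membrane arm, was at 23299, 25191 and 22556 CPM in WT. It was at 32511, 34111 and 30160 CPM in AKO. Each AKO library exceeded each WT library, and the ranges were of similar width. ND2 had a log2FC of 0.45 ± 0.15 (adjusted p = 0.0339, edgeR). ND2 passed with all libraries under every other scaling, filter and tool tried. It no longer passed without WT replicate 1 (0.44), WT replicate 2 (0.48), WT replicate 3 (0.40) or AKO replicate 2 (0.40). The 15 other fits gave adjusted p-values of 0.00132 to 0.144.

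ND5, the longest member and the distal antiporter-like channel, was at 17181, 17676 and 16570 CPM in WT and at 21182, 27499 and 25495 CPM in AKO. AKO replicate 1 lay nearest to the WT libraries and still above them. ND5 had a log2FC of 0.53 ± 0.16 (adjusted p = 0.0183, edgeR). ND5 did not pass without WT replicate 3 (0.49) or AKO replicate 2 (0.44), and the 15 other fits gave adjusted p-values of 0.000527 to 0.0835.

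ND4, the remaining antiporter-like channel, was at 16895, 18305 and 16570 CPM in WT and at 13976, 19578 and 17484 CPM in AKO. AKO replicate 1 held the lowest value of the 6 libraries and AKO replicate 2 the highest. ND4 had a log2FC of −0.021 ± 0.16, which was above 0 with upper-quartile scaling (0.041), library totals only (0.075), scaling from nuclear genes only (0.013) and a filter at a mean of 5 CPM (0.038). ND4 did not pass in any fit.

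ND4L and ND3, the short members with identical or nearly identical nuclear copies, had far fewer counts than their neighbours. ND4L, a small subunit of the membrane arm, was at 195, 184 and 241 CPM in WT and at 173, 196 and 186 CPM in AKO (log2FC −0.16 ± 0.13). ND3, which carries a loop near the ubiquinone site, was at 260.5, 394 and 359.9 CPM in WT and at 251, 379 and 358 CPM in AKO. Replicate 1 was the lowest of each group for ND3. The log2FC of ND3 was −0.038 ± 0.18 and lay above 0 with upper-quartile scaling (0.024), library totals only (0.062) and a filter at a mean of 5 CPM (0.021). Neither gene passed in any fit.

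ND6, a membrane arm subunit and the only member on the minus strand, was at 9188, 11172 and 10668 CPM in WT and at 10055, 12767 and 11291 CPM in AKO. The groups overlapped, and the log2FC was 0.14 ± 0.15 (adjusted p = 0.517, edgeR). Single counts of the 7 members lay between 1306 and 270972, so the counting error of 1 value was at most 2.77% of it. For all 7 members, in WT and in AKO, the SD between libraries was larger than the counting error of the group's lowest count, and ND1 in AKO had the widest spread, at 24.7% of its mean. Intervals from counting cover counting error only.

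Compared per length, the 7 mRNAs differed widely in level. RNA was enriched with oligo(dT), so comparisons between genes also depend on how well each mRNA was captured, which was not measured. The ND6 values may include RNA antisense to it, since the strand setting is not given. In WT, ND1 led at 25054 ± 347 CPM per kb, followed by ND2 (22815 ± 1309) and ND6 (19928 ± 1987). ND4 was at 12523 ± 670 CPM per kb and ND5 at 9398 ± 304, and each of these neighbours in the order was separated from the next by all libraries. ND3 (971 ± 199 CPM per kb) and ND4L (695 ± 101) followed far below, and their WT libraries overlapped. In AKO, the order was led by ND2 at 31080 ± 1915 CPM per kb, above ND6 (21910 ± 2616), ND1 (16308 ± 4035), ND5 (13556 ± 1770) and ND4 (12346 ± 2054). In that group the ranges of ND6 and ND1, of ND1 and ND5, and of ND5 and ND4 overlapped. Within libraries, ND6 exceeded ND1 and ND5 exceeded ND4 in all 3, and ND1 exceeded ND5 in 2 of 3. ND1 ranked highest per length among the 7 in WT, and in AKO its libraries overlapped with those of ND6 and ND5.

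**Figure D2:**
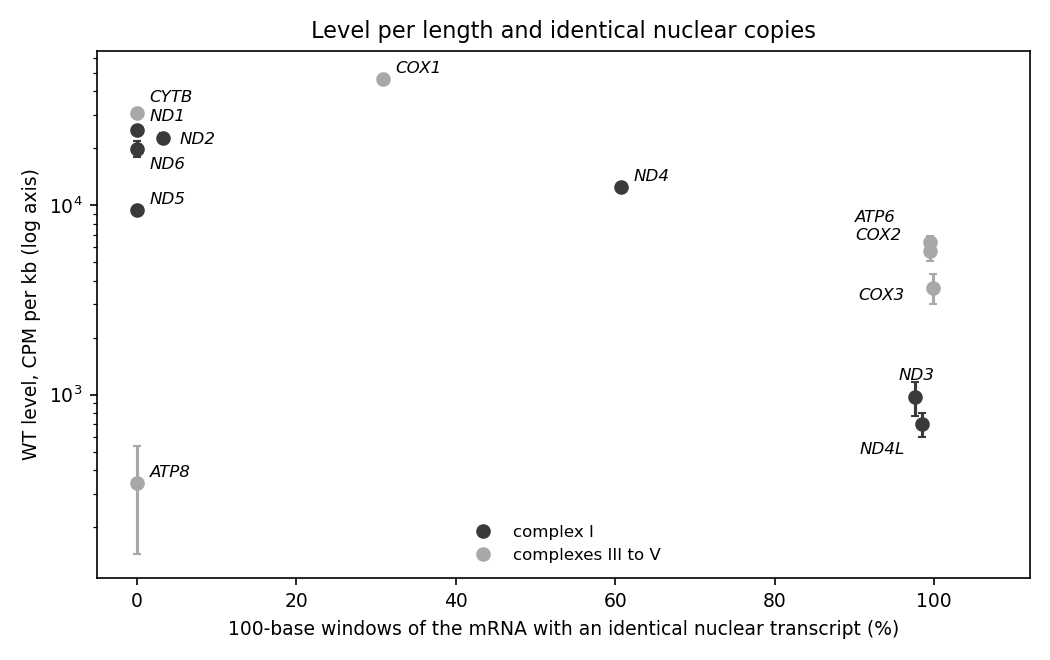
WT level per length (vertical log axis, CPM per kb, mean ± SD of 3 libraries) against the percentage of 100-base windows of an mRNA that are identical in an annotated nuclear transcript (horizontal axis), for the 13 mitochondrially encoded mRNAs. ND3 and ND4L, at 97.6% and 98.5%, are the lowest complex I points. ATP8 is low with no annotated copy, and unannotated copies were not searched.

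Among the 13 mitochondrially encoded mRNAs, COX2, ATP6, COX3, ND3 and ND4L had over 90% of their 100-base windows in an annotated nuclear transcript, and took ranks 8 to 12 in WT level per length. ATP8, which ranked last, overlaps ATP6 by 43 bases and had no annotated nuclear copy. It lies between COX2 and ATP6, whose copies Gm28661 and Gm10925 lie at chr1:24614885-24615565 and chr1:24613974-24614651. The stretch between these copies was not searched, so an unannotated copy of ATP8 there is possible. The part of shared reads in these low levels was not tested.

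The other mitochondrially encoded mRNAs show where ND1 stands apart. Of these 6, 3 were higher (log2FC of COX2 0.87, COX3 0.78 and CYTB 0.57), ATP8 was lower and 2 did not pass (COX1 0.22, ATP6 −0.17). Over all genes tested, 20.2% were higher and 17.5% lower. Identical 100-base windows in a nuclear transcript made up 99.5% of COX2, 99.9% of COX3, 99.5% of ATP6 and 30.8% of COX1. The values of these genes are therefore uncertain too. COX1 to COX3 encode the core of complex IV, CYTB a subunit of complex III, and ATP6 and ATP8 subunits of ATP synthase. ATP8 was at 25.1 to 109 CPM, and its log2FC of −1.001 ± 0.36 (adjusted p = 0.0458, edgeR) did not pass in 6 of 9 other fits with all libraries or in 4 of 6 without 1 library, among them DESeq2 (−1.01) and the fit without WT replicate 1 (−0.51). CYTB did not pass without WT replicate 3 (0.56) or AKO replicate 2 (0.47). ND1 was the only mRNA of the 13 whose CPM in each AKO library was below that in each WT library, which held for 24.4% of all genes tested.

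**Figure D3:**
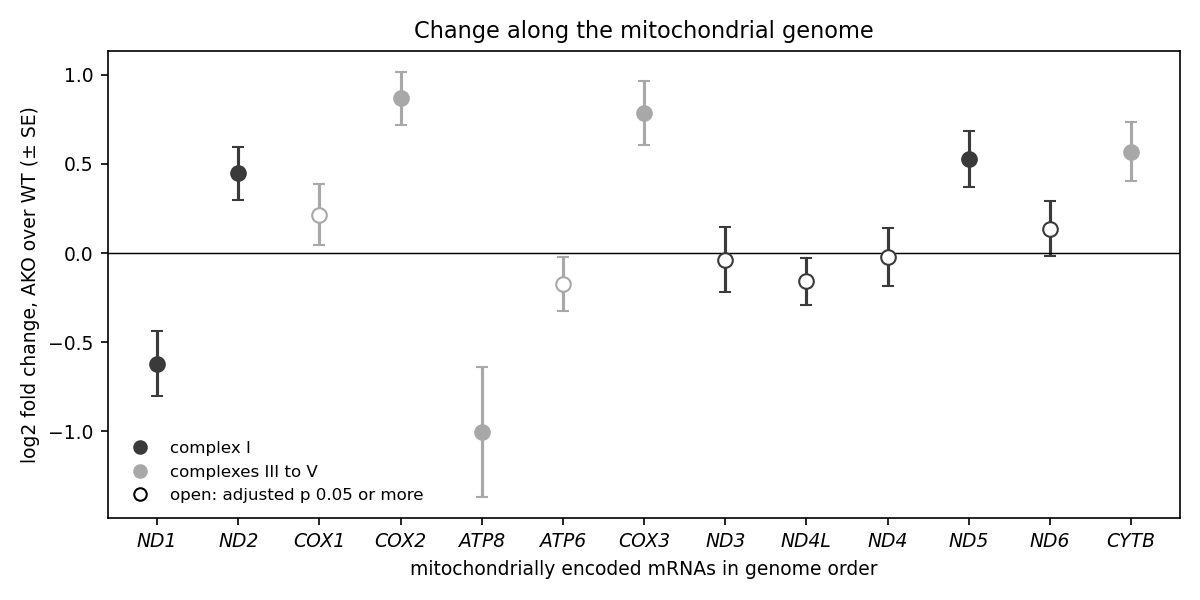
Log2 fold change of AKO over WT with its SE (vertical axis) for the 13 mitochondrially encoded mRNAs in the order of the genome (horizontal axis). Dark points are complex I, grey points complexes III to V, and open points did not pass the test. ND1, at −0.62, stands next to ND2, at 0.45.

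Shares of the mitochondrially encoded counts do not depend on the scaling between libraries, while shares of all counts amount to scaling by library totals. The 7 members took 8.97%, 9.03% and 8.91% of all counts in WT and 9.53%, 11.4% and 10.4% in AKO. The difference of the means was 1.47 percentage points, and an exact permutation test, two-sided, had p = 0.10. This is the smallest p that 3 against 3 libraries allow, so no such test here can pass 0.05. Over TMM effective library sizes in place of all counts, the difference was 0.855 percentage points and the groups overlapped. On that scale the 7 members summed to 90890.0, 97271 and 90672 CPM in WT and to 93048, 114302 and 97122 CPM in AKO, so AKO replicates 1 and 3 lay below WT replicate 2. The 6 other mitochondrially encoded mRNAs took 11.4 ± 0.27% of all counts in WT and 15.6 ± 1.94% in AKO (SD, n = 3, exact p = 0.10). Of the counts of all 13 mitochondrially encoded mRNAs, the 7 members took 44.6%, 43.8% and 43.4% in WT and 41.4%, 39.8% and 39.1% in AKO. Their share of these counts was lower in each AKO library than in each WT library, with a difference of the means of −3.84 percentage points (exact p = 0.10). Wilson intervals at 95% for the shares of single libraries were at most 0.0469 percentage points wide for all counts and 0.157 for mitochondrially encoded counts.

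The difference for ND1 was larger in size than that for the 7 together. The summed mean share of the other members was therefore higher in AKO than in WT. ND1 took 11.7%, 10.97% and 11.4% of the mitochondrially encoded mRNA counts in WT and 6.63%, 6.88% and 4.89% in AKO, a difference of −5.21 percentage points. ND4 was also below WT in each AKO library on this scale, at 8.29%, 8.25% and 7.93% against 6.22%, 6.81% and 7.04%. ND4L was lower without overlap too, at 0.0980 ± 0.016% in WT and 0.0734 ± 0.0048% in AKO (SD, n = 3). As shares of all counts both overlapped between the groups, with ND4 at 1.67 ± 0.035% in WT and 1.75 ± 0.28% in AKO. The 13 mRNAs together took 20.4 ± 0.27% of all counts in WT and 26.1 ± 2.84% in AKO. Of the mitochondrially encoded mRNA counts, ND5 took 8.44%, 7.96% and 7.93% in WT and a higher share, 9.43%, 9.57% and 10.3%, in AKO. ND2 took 11.4%, 11.3% and 10.8% in WT and 14.5%, 11.9% and 12.1% in AKO, and its difference of 1.64 percentage points became 0.813 without AKO replicate 1. For each of these 5 members the exact p = 0.10 for the share of mitochondrially encoded mRNA counts. ND3 (exact p = 0.30) and ND6 (exact p = 0.20) overlapped between the groups, and ND6 took 4.88 ± 0.33% in WT and 4.49 ± 0.054% in AKO (SD, n = 3). Outside complex I, CYTB took 16.7 ± 0.25% of the mitochondrially encoded mRNA counts in WT and 20.6 ± 0.67% in AKO, and COX1 34.0 ± 0.22% and 32.9 ± 0.67%, both without overlap.

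**Figure D4:**
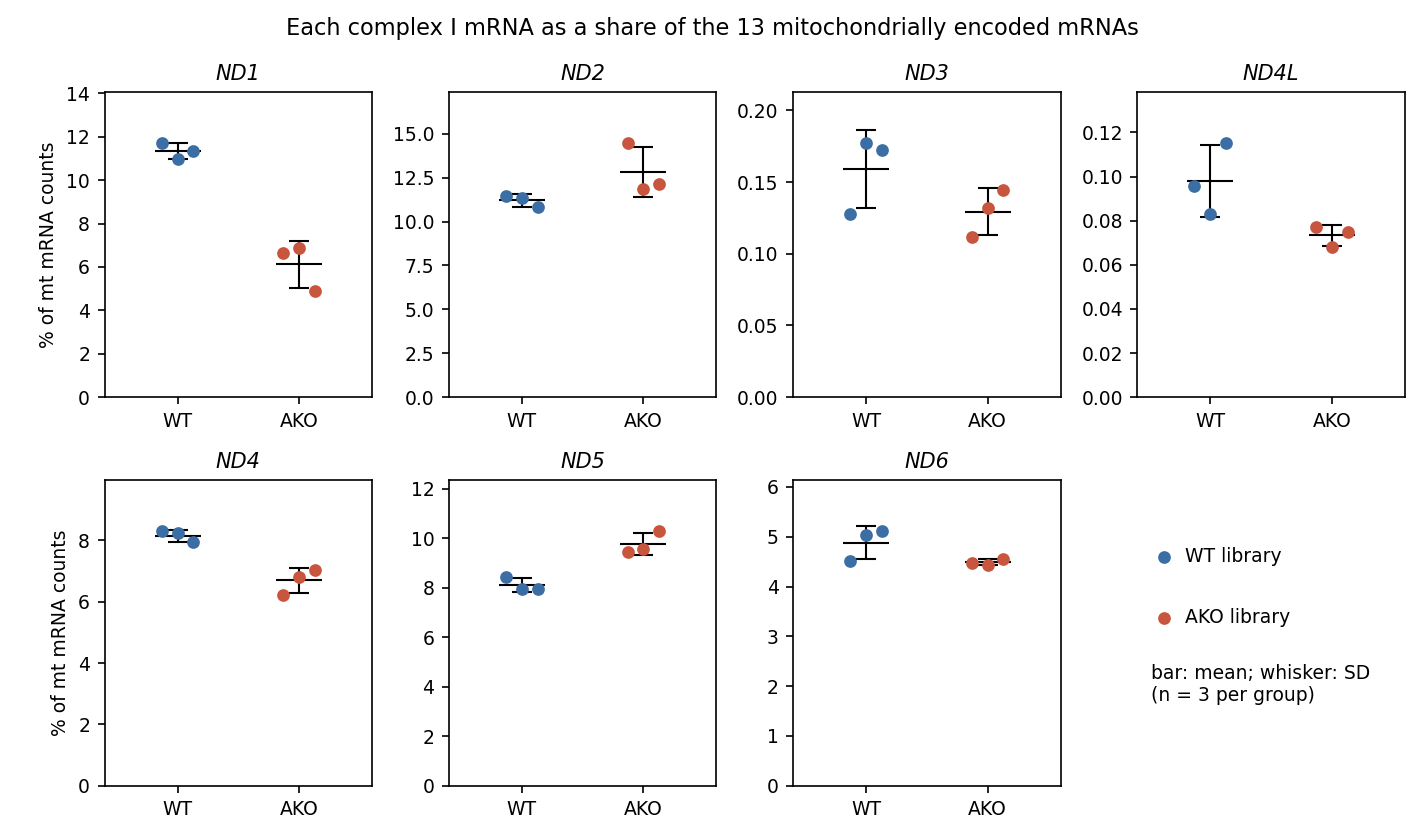
Each complex I mRNA as a percentage of the counts of the 13 mitochondrially encoded mRNAs (vertical axes, each from 0) in WT and AKO libraries. Points are libraries, the bar is the mean and the whisker the SD. The mean of ND1 is 11.3% in WT and 6.14% in AKO, and that of ND5 8.11% and 9.76%.

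Ratios between members that follow each other along the genome were compared within each library, as counts per length. ND1 and ND2 are separated by tRNA genes. Their ratio was 1.11, 1.05 and 1.14 in WT and 0.497, 0.629 and 0.437 in AKO, a log2 difference of −1.09 (exact p = 0.10). The ratio of ND4 to ND5 was 1.302, 1.37 and 1.32 in WT and 0.873, 0.942 and 0.908 in AKO (−0.55 on the log2 scale, exact p = 0.10). ND4 exceeded ND5 in all WT libraries and was below it in all AKO libraries. The ratio of ND5 to ND6 was higher in each AKO library, at 0.599 to 0.642 against 0.442 to 0.532. Reads of RNA antisense to ND6 may be part of this ratio. Groups overlapped for the ratios of ND2 to ND3, ND3 to ND4L and ND4L to ND4.

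Features of the reading frames were set beside these values. Codons for cysteine (TGT and TGC) numbered 1 in ND1, 1 in ND2, 1 in ND3, 3 in ND4L, 3 in ND4, 6 in ND5 and 4 in ND6. The members that were called therefore had 1, 1 and 6 cysteine codons, and the others had 1, 3, 3 and 4. As a share of codons they ranged from 0.290% in ND2 to 3.06% in ND4L. Start codons were GTG in ND1, ATA in ND2, ATT in ND3, ATC in ND5 and ATG in the other 3, so codons other than ATG began the 3 called members and also ND3, which was not called. ND1 is the first protein gene downstream of the ribosomal RNAs, and the 3 members without an identical window of 100 bases in the nuclear transcripts were ND1, ND5 and ND6.

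The 7 nuclear genes of the conserved complex I core had less mRNA in AKO for 2 members and did not pass for 5, where 17.5% of all genes tested were lower. Ndufs8, which holds iron-sulfur clusters on the electron path, had a log2FC of −0.55 ± 0.15 and Ndufv2 of −0.45 ± 0.13. Ndufs3 was at −0.32 and Ndufs7 at −0.23, and neither passed. The AKO libraries of the 7 genes lay wholly below the WT libraries for 6 of 7, where 24.4% of all genes tested did. Ndufs8 did not pass without WT replicate 2 (−0.39) or AKO replicate 3 (−0.46), nor Ndufv2 without WT replicate 2 (−0.40), WT replicate 3 (−0.45) or AKO replicate 3 (−0.36).

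Of 26 nuclear genes that make, process or stabilise mitochondrial RNA, 14 were lower, against 17.5% of all genes tested, and the other 12 did not pass. The median log2FC over all 26 was −0.40. When scaled by library totals alone, 8 were lower, against 12.4% of all genes tested. Rexo2, which degrades short RNAs, had a log2FC of −0.76, Fastkd5, which processes transcript ends not marked by a tRNA, of −0.82, and Tbrg4, a stabiliser of some mitochondrial mRNAs, of −0.70. Mterf4, which acts in assembly of the mitochondrial ribosome, had −0.77, and Ptcd2 −0.56. Grsf1, an RNA granule protein that binds ND6 transcripts in human cells, was at 213 to 223 CPM in WT and 148 to 166 CPM in AKO (log2FC −0.47 ± 0.12). Lrpprc and Slirp, partners that stabilise mitochondrial mRNAs, had log2FC values of 0.0091 ± 0.14 and −0.27 ± 0.14 and did not pass, and the value of Lrpprc lay below 0 in some other fits.

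Genes whose level followed that of the summed 7 members over the 6 libraries were ranked by Pearson's r of log2 CPM among 10103 nuclear genes. The 5 highest were Rbbp9 (r = 0.993), Fbxo36 (0.974), Ndrg1 (0.974), Fbf1 (0.971) and Larp1b (0.971), and 72 genes had r above 0.90. The summed level was highest in AKO replicate 2, at 114302 CPM, and 90672 to 97271 CPM in the other 5 libraries, so these values rest largely on 1 library. None of the 5 genes passed the test between AKO and WT.

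Summed levels of muscle, macrophage and fibroblast markers were higher in each AKO library than in each WT library. Those of endothelial and erythroid markers overlapped between the groups. Muscle markers summed to 399, 85.7 and 408 CPM in WT and to 847, 1821 and 1730.2 CPM in AKO. WT replicate 2, with the least muscle signal, was the highest WT library for 6 of the 7 members, called or not. AKO replicate 1, with the least among AKO, was the lowest AKO library for 5 of the 7, and AKO replicate 2, with the most, was the highest for all 7. These orders are of TMM-scaled CPM and depend on the scaling. As shares of all counts, WT replicate 2 was the highest WT library only for ND2, ND3 and ND4. On that scale AKO replicate 2 was the highest AKO library only for ND1, ND2, ND4 and ND6. Macrophage markers summed to 206, 169 and 186 CPM in WT and to 813, 669 and 924 CPM in AKO. Fibroblast markers summed to 361, 264 and 288 CPM in WT and to 757, 743 and 688 CPM in AKO. Both lists were lowest in WT replicate 2, but neither was highest in AKO replicate 2, which had the least macrophage signal of AKO. The part of muscle, macrophage and fibroblast RNA in the results for the 7 members was not tested.

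**Figure D5:**
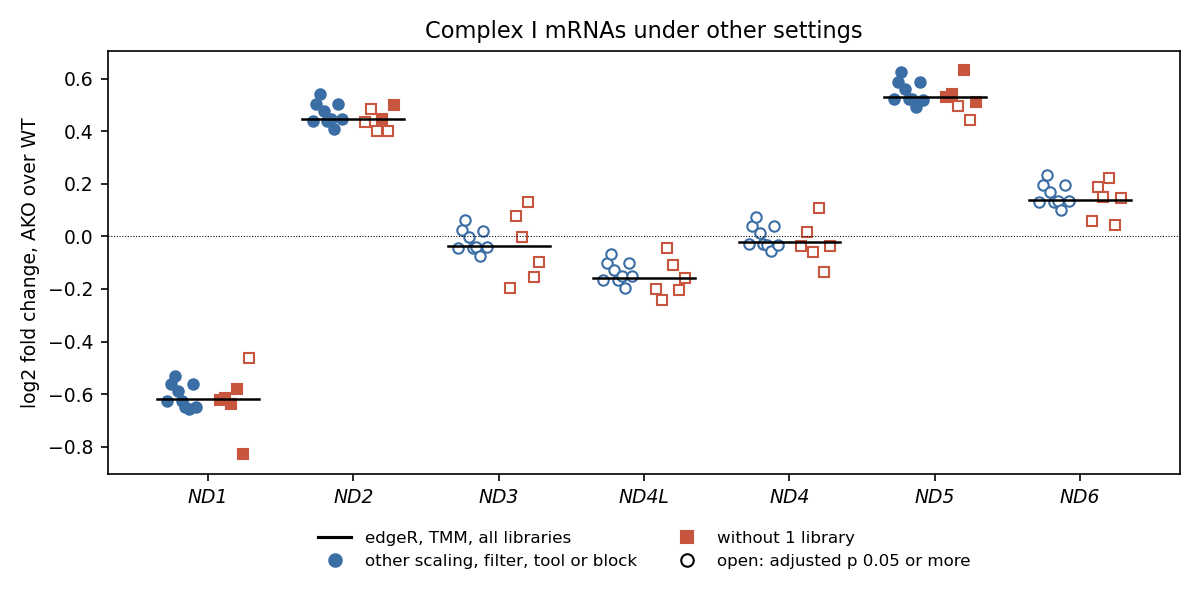
Log2 fold change of AKO over WT (vertical axis) for the 7 complex I mRNAs under other scalings, filters, tools and the replicate block (circles) and without 1 library (squares). The line is the value with edgeR and all libraries, and open marks did not pass the test. ND1 stays below 0 and ND2 and ND5 above 0 in all 15 fits.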

How the data were processed

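BAT RNA from 3 WT and 3 AKO mice was enriched with oligo(dT) and sequenced as DNA nanoballs. The authors deposited whole-number counts per gene, without normalization, and all 6 columns were used. STAR and HTSeq are named in the study's methods. The submitters' processing notes instead list DESeq2 1.4.5, RSEM 1.3.1, Bowtie2 and the build mm10, with no roles. Annotation release and strand setting are not given there. Columns were matched to samples by name. Within groups, no library pair agreed within counting noise (chi-square per degree of freedom 5.40 to 19.3), so none was treated as a repeat deposit of another. This does not show that they came from separate mice.

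Counts were tested with edgeR 4.0.16 in R 4.3.3 (TMM, filterByExpr by group, genotype as the only term) over 13007 of 22147 detected genes. The SE is the size of the log2 fold change divided by the square root of F. Shares and within-library ratios were compared by exact two-sided permutation over 20 arrangements (scipy 1.17.1). In 27 rows, with 0.134% of counts, gene symbols had become dates; these were tested but not named. Lengths, positions and sequences come from GENCODE M21, and copies from blastn 2.17.0 at 90% identity or more among annotated nuclear transcripts; unannotated copies were not searched. The edgeR procedure was tested on simulated counts, and the permutation procedure on fixed values with a known p.

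All 7 members, the 6 other mitochondrially encoded mRNAs, nuclear core subunits and Cars2 are named, with the 6 called RNA genes of lowest p, Lrpprc, Slirp and Grsf1, and the 5 nuclear genes (mean 5 CPM or more) most like the summed members. The rule covers all 7 nuclear core subunits, of which some are not reported here by name. Of the cell type markers, Ucp1 and Ebf2 are named. Members and lists were chosen with earlier results of these data known. Alternatives were RLE or upper-quartile factors, library totals, scaling from nuclear genes, DESeq2 1.42.0, limma-voom 3.58.1, no filter, a mean of at least 5 CPM, each replicate left out, and the replicate block; for shares, other denominators or rows left out.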

Additional observations from a re-analysis of the deposited data

How the results depend on the processing

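With 1 replicate left out in turn, the number of complex I mRNAs called higher ran from 0 to 2 and lower from 0 to 1, that of nuclear core subunits called lower from 0 to 2 and that of the other mitochondrially encoded mRNAs called lower from 0 to 1. In the same fits ND1 ran from −0.83 to −0.46, ND2 from 0.40 to 0.50, ND3 from −0.19 to 0.13, ND4 from −0.14 to 0.11 and ND5 from 0.44 to 0.63. These fits have fewer samples. With all libraries kept, ND3 was above 0 with upper-quartile scaling (0.024), library totals only (0.062) and a mean of at least 5 CPM (0.021), as was ND4 (0.041, 0.075 and 0.038) and, for ND4, with scaling from nuclear genes only (0.013). Lrpprc was below 0 with limma-voom (−0.0039), no low-count filter (−0.027) and the replicate block (−0.0032), and ran from −0.085 to 0.14 with 1 replicate left out. ATP8 was not called, so that 0 of the 6 other mitochondrially encoded mRNAs were lower, with upper-quartile scaling, library totals only, scaling from nuclear genes only, DESeq2, limma-voom and a mean of at least 5 CPM. With library totals only, 8 RNA synthesis and stability genes were lower in place of 14, and the median of all genes moved from 0.0088 to 0.10. The cause was not tested for these changes of scaling, filter or tool. The labels give both groups the numbers 1 to 3 but nothing that pairs them, and deviations of same-numbered libraries correlated at −0.020, 0.012 and 0.17. With the replicate block, 2 complex I mRNAs were higher and 1 lower, as without it, and calls over all genes went from 4897 to 4926. The share differences kept their sign and moved by less than the SD of the more variable group under each alternative run, though some moved by more than the SD of the other group. The summed share of all counts went from 1.47 to 0.855 percentage points over TMM effective library sizes, and that of ND2 among mitochondrially encoded counts from 1.64 to 0.813 without AKO replicate 1. The alternative that adds ribosomal and transfer RNA rows to the denominator was not run, since no such rows were used here. Depth was not the limit for the members, whose single values had at most 2.77% counting error.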
